A study of Mus musculus with 12 samples.

Results

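The data described here are the RNA-seq of mouse thymocytes. The comparison is between 3 libraries whose labels say wild type (WT) and 3 whose labels say knockout (KO). The knockout is of miR-181a/b-1, a pair of microRNA genes on chromosome 1. The comparison was chosen as the 6 RNA-seq libraries among the 12 of the series, and its members are the Ensembl gene rows with a mean count of at least 10 reads over those 6 libraries, 13369 of 55335 rows. The study asked where in its target transcripts miR-181 acts. Its other 6 libraries hold ribosome footprints, the mRNA fragments that ribosomes protect from nuclease, from the same genotypes. All mice were 6 weeks old and kept free of specified pathogens, the tissue was thymus, and cells from either genotype went straight into buffer with cycloheximide, which stalls ribosomes. The labels give no strain, sex, allele or breeding scheme and do not say whether the WT mice were littermates, so the groups are known by genotype alone. The RNA-seq and footprint libraries were not tied to single mice in the labels.

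MicroRNAs guide Argonaute proteins to messenger RNAs through a short seed near their 5′ end, and the bound transcript is then degraded or translated less. miR-181a is abundant in CD4+CD8+ thymocytes, where it is known to lower phosphatases that dampen T cell receptor (TCR) signalling, and mice without miR-181a/b-1 are known for a loss of natural killer T (NKT) cells. The family is shown because the deleted pair and the relatives left in the KO share 1 seed. Mature sequences are those of RefSeq (GRCm38.p6), 5′ to 3′, with the seed (bases 2 to 8) in capitals.
miR-181a-5p: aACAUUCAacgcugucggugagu
miR-181b-5p: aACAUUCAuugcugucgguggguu
miR-181c-5p: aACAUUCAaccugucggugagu
miR-181d-5p: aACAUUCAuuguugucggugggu
The deleted copies of miR-181a and miR-181b lie at chr1:137966468-137966490 and chr1:137966650-137966673, both on the plus strand. The same mature miR-181a and miR-181b are also encoded by Mir181a-2 and Mir181b-2 on chromosome 2, and Mir181c and Mir181d lie on chromosome 8.

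The deleted locus was read first. Levels are given as CPM (counts-per-million), the counts of a gene relative to the total reads in genes, scaled to a common depth by TMM, a normalization that matches libraries on the bulk of their genes. In RNA-seq Mir181a-1 (ENSMUSG00000065565.1) had 3.95, 3.47 and 0.97 CPM in the WT-labelled libraries and 2.33, 2.35 and 5.1 CPM in the KO-labelled ones, from 57 and 67 reads in all. The groups overlapped, and the gene was not called (log2 fold change 0.29, edgeR FDR 0.921). In footprints the same row had 166, 132 and 145 CPM in WT against 0.461, 1.04 and 0.981 CPM in KO. The RNA-seq row therefore does not check the labels of the RNA-seq libraries, and WT and KO below stand for the libraries so labelled. Mir181b-1 had 0 reads in every library, so that its level could be up to 0.145 CPM in WT or 0.156 CPM in KO, and the other 4 Mir181 rows held at most 7 reads per genotype in RNA-seq.

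The 6 libraries held 4479182 to 8180286 reads in genes, 27.0% to 28.5% of all counted reads, while 50.9% to 57.1% lay in no annotated feature. Libraries of the same replicate number mirrored each other: taken as departures from their own group means, WT and KO libraries of 1 number correlated at -0.99 to -0.95 across 8010 genes, against 0.18 to 0.71 for other pairs. These correlations run across genes, which are not independent replicates. Because of the mirroring the replicate number entered the test as a block, and the spread within a group may not measure the spread between mice.

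RNA of 104 genes differed between the genotypes at an edgeR FDR (Benjamini-Hochberg adjusted p) under 0.05, which is 0.778% of the genes tested: 50 were higher in KO (0.374%) and 54 lower (0.404%). The changes were large for those few genes. The median called rise was 1.16 and the median called fall -1.48 on the log2 scale, and 30 rises and 42 falls went beyond 2-fold. The 3 KO libraries lay outside the range of the 3 WT libraries for each of the 104 genes, as they did for 30.9% of all genes tested. Since every called gene shares it, a lack of overlap described below for a called gene adds no support to its call. At the edge of the call stood Cers4 (FDR 0.0485), just inside, and Ms4a4b (FDR 0.0513), just outside. An unadjusted p under 0.05 was reached by 9.56% of genes. Without the block 908 genes were called (6.79%), 450 higher (3.37%) and 458 lower (3.43%), the 104 among them. The omission of the 2 libraries numbered 1 left 46 of the 104 genes called, that of number 2 left 95 and that of number 3 left 96, and 45 were called under every such omission.

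**Figure D1:**
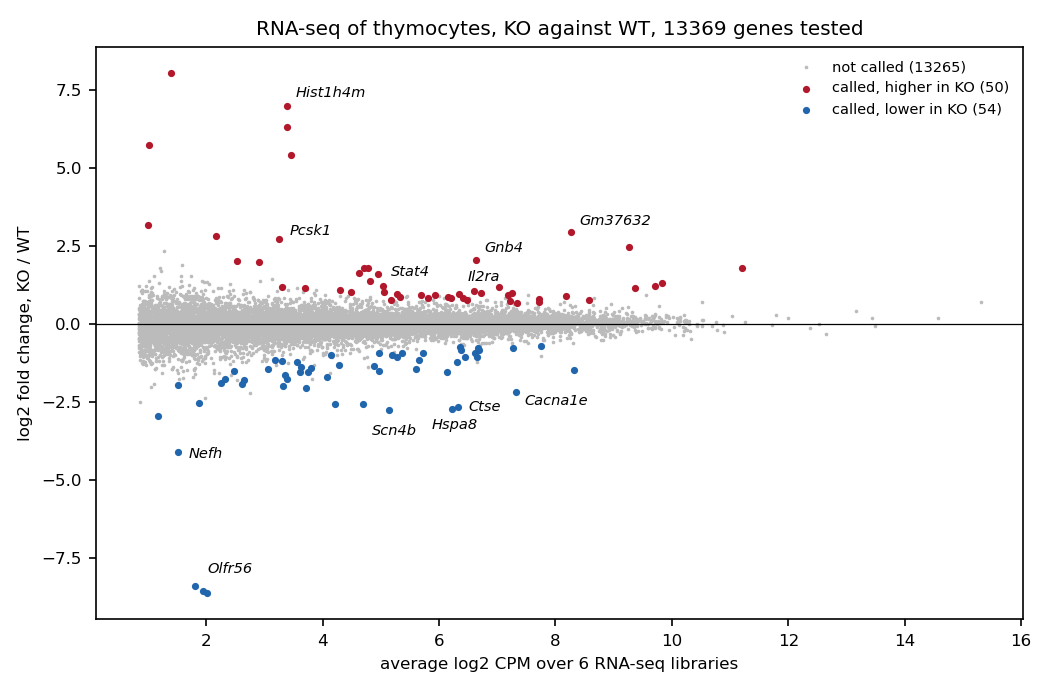
Log2 fold change of KO over WT (vertical axis) against average log2 CPM over the 6 RNA-seq libraries (horizontal axis), 1 point per tested gene. The 50 called rises (red) and 54 called falls (blue) spread over the whole range of levels, and genes not called are grey.

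The called genes were sorted by what their products are known to do, after the calls were seen, so the classes describe the calls and test nothing. Receptors and signalling held 19 genes, ion channels and transporters 9, transcription, chromatin and RNA 9, matrix and adhesion 8, membrane traffic 8, and lipid, steroid and sugar metabolism 8. Proteases, chaperones and protein modification held 6, cell division and cytoskeleton 6, and interferon-inducible families 5. A further 22 were predicted or uncharacterised genes and 4 fitted no class.

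**Figure D2:**
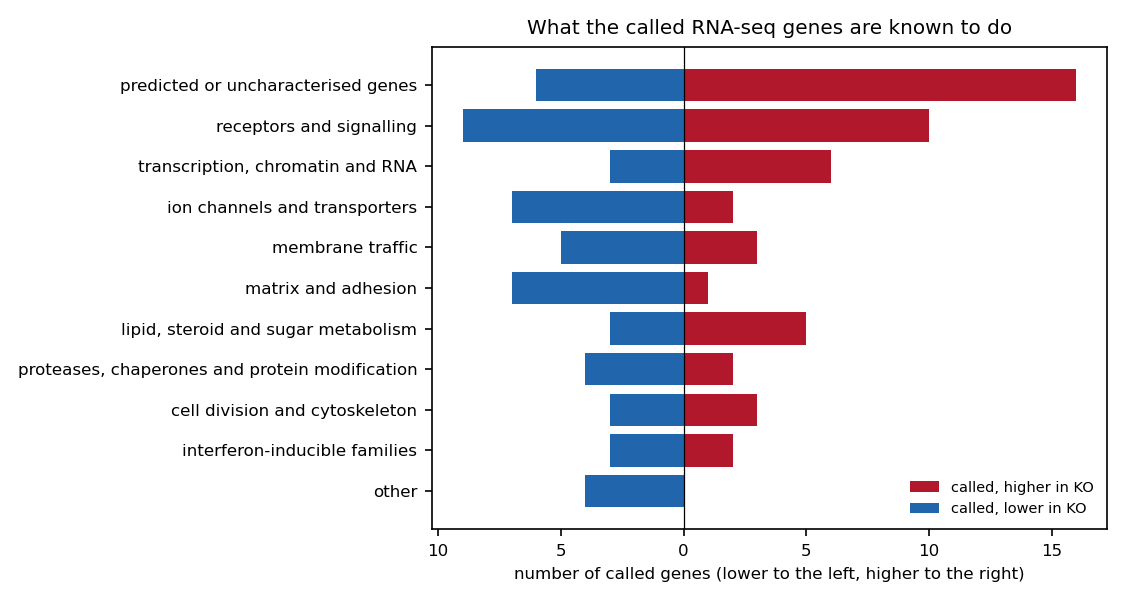
Number of called RNA-seq genes in each class of known function, higher in KO to the right (red) and lower in KO to the left (blue). Receptors and signalling were nearly balanced at 10 and 9, ion channels and transporters had 2 higher and 7 lower, and matrix and adhesion had 1 higher and 7 lower.

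Among receptors and signalling, the largest rise was in Gnb4 (ENSMUSG00000027669.14), a beta subunit of the G proteins that relay signals from hormone and chemokine receptors. It had 38.4, 39 and 39.4 CPM in WT against 161, 161 and 160.1 CPM in KO (log2 fold change 2.05, SE 0.14, edgeR FDR 9.13e-06). The libraries within each genotype were nearly level and far apart from the other genotype. Prag1 (ENSMUSG00000050271.12), a pseudokinase, had 8.85, 11.1 and 14.8 CPM in WT against 49.3, 44 and 30.1 CPM in KO (1.8, SE 0.25, FDR 0.00335). Samsn1 (ENSMUSG00000022876.18), an adaptor of lymphocyte signalling with SH3 and SAM domains, had 19.6, 12.1 and 15 against 31.7, 49.1 and 41.3 CPM (1.38, SE 0.23, FDR 0.014). Both genes scattered within a genotype without overlap between genotypes.

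Chains and mediators of cytokine receptors moved in both directions. Stat4 (ENSMUSG00000062939.11), the transcription factor that interleukin-12 activates, had 19.6, 20 and 19.3 CPM in WT against 45.2, 44.7 and 46.6 CPM in KO (1.21, SE 0.16, edgeR FDR 0.00268). Il2ra, the alpha chain of the interleukin-2 receptor (CD25), had 55.6, 55.7 and 47.7 against 90.4, 90 and 104 CPM (0.84, SE 0.15, FDR 0.0188). Il17rb, a receptor chain for interleukin-25, rose by 0.96 on the log2 scale (FDR 0.00658). In the opposite direction Il6ra, the alpha chain of the interleukin-6 receptor, had 27.3, 24.2 and 30.1 CPM in WT against 10.9, 12.5 and 9.57 CPM in KO (-1.32, SE 0.20, FDR 0.00811). The WT and KO libraries did not overlap for any of these 4 genes, as for every called gene, and Stat4 was the 1 of the 4 still called without number 1. On a list of 33 tested cytokine, JAK, STAT and SOCS genes, Stat4 and Il6ra were the members called by edgeR, while DESeq2 called 4. The list's median log2 fold change was -0.03, beside -0.01 over all genes tested. Of all genes 0.778% were called by edgeR, and this list and those below that hold calls hold too few to be read against that share.

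Other rises of this class were in Cd93, a C-type lectin-like receptor of early progenitors and endothelium, Gfra1, a co-receptor for GDNF, Edaradd, an adaptor of the EDAR receptor, and Camk2d, a calcium/calmodulin-dependent kinase. Cd93 (ENSMUSG00000027435.8) had 6.96, 8.75 and 7.76 against 18.9, 15.8 and 17.9 CPM (1.17, SE 0.22, edgeR FDR 0.0308), a call lost without number 1 (FDR 0.284). The other 3 rose by 0.72 (Camk2d) to 1.02 (Gfra1) on the log2 scale.

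The falls in this class were led by Ptprv and Cd7. Ptprv (ENSMUSG00000097993.7), named for a receptor-type tyrosine phosphatase and listed by RefSeq as a transcribed pseudogene, had 27.3, 28.7 and 35.8 CPM in WT against 6.25, 5.64 and 3.98 CPM in KO (-2.55, SE 0.24, edgeR FDR 0.000199). Every KO library lay far below the lowest WT library. Cd7 (ENSMUSG00000025163.6), a surface receptor of T and NK cells, had 6.96, 6.39 and 8.18 against 2.33, 2.59 and 1.62 CPM (-1.75, SE 0.33, FDR 0.0311), a call lost without number 1 (FDR 0.133) and in DESeq2 (adjusted p 0.0754). Kremen1, a co-receptor for Dickkopf proteins that damps Wnt signalling, had 504, 411 and 481 CPM in WT against 155, 190.4 and 163 CPM in KO (-1.46, SE 0.15, FDR 0.00034). It stayed called under each omission of a replicate number. Errfi1, a feedback inhibitor of EGF receptors, fell by 1.22 on the log2 scale, Adcy1, a calcium-stimulated adenylate cyclase, by 1.19, Igfbp4, which binds insulin-like growth factors, by 1.0, Mfhas1, a leucine-rich repeat protein, by 0.94 and Itgb3, integrin beta 3, by 0.92. Of the 19 genes of the class, 6 were called without number 1.

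Of the ion channel genes, 3 fell. Scn4b (ENSMUSG00000046480.6), a beta subunit of voltage-gated sodium channels, had 67.8, 49 and 63.9 CPM in WT against 7.56, 11.5 and 8.33 CPM in KO (log2 fold change -2.75, SE 0.22, edgeR FDR 2.84e-05). Cacna1e (ENSMUSG00000004110.17), the pore subunit of an R-type calcium channel, had 243, 268 and 272 against 61.6, 55 and 55.4 CPM (-2.19, SE 0.14, FDR 9.13e-06). Cacnb3 (ENSMUSG00000003352.14), a beta subunit of voltage-gated calcium channels, had 23.1, 23.9 and 28.4 against 8.72, 8.23 and 6.59 CPM (-1.69, SE 0.22, FDR 0.00203). All 3 genes were low in each of the KO libraries and high in each of the WT libraries, and all 3 stayed called under each omission. They were the called members among 55 tested ion channel genes, beside 0.778% of all genes called, too few calls to be read against that share. The list's median log2 fold change was -0.12, or 0.04, -0.04 and -0.26 in the pairs numbered 1, 2 and 3. Itpr2 and Itpr1, the inositol trisphosphate receptors that release calcium from the endoplasmic reticulum, stood at 0.29 and 0.04 (FDR 0.505 and 0.968).

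Transporters of this class also fell for the most part. Slc41a1, a magnesium transporter, had 112, 96.3 and 102 CPM in WT against 33.1, 38.8 and 36.4 CPM in KO (-1.52, SE 0.15, edgeR FDR 0.000238). The flippases Atp11a and Atp9a, which move phospholipids across membranes, fell by 1.2 and 1.39, and Tmie, part of the mechanotransduction complex of hair cells, by 1.52. Gm14085, listed by RefSeq as Slc28a2b of the nucleoside transporters, rose by 1.78 and Slc35e4, a solute carrier with few reads in WT, by 3.16. Slc41a1 was the called member among 160 tested solute carriers whose symbol is Slc, a family number, the letter a and a member number, a pattern that leaves out Slc35e4 and Gm14085, and their median was -0.02. Of the 9 genes of the class, 7 were called without number 1.

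Matrix and adhesion genes were lower in KO in 7 of 8 cases. Hspg2 (ENSMUSG00000028763.18), which encodes perlecan, a heparan sulfate proteoglycan of basement membranes, had 44.4, 44.6 and 41.6 CPM in WT against 7.27, 6.82 and 7.83 CPM in KO (-2.56, SE 0.19, edgeR FDR 1.61e-05). Fat4 (ENSMUSG00000046743.6), an atypical cadherin, had 6.8, 6.94 and 7.21 against 2.03, 1.65 and 1.86 CPM (-1.9, SE 0.32, FDR 0.0144; 0.0762 without number 1). The groups were far apart for both genes. Lower too were Smoc1 (-1.44), a secreted calcium-binding matrix protein, Podxl2 (-1.52), a sialomucin, Emid1 (-1.33), an EMI domain protein, Fcgbp (-0.93), which binds the Fc part of IgG, and Adam12 (-0.77), a metalloprotease. Lad1 (ENSMUSG00000041782.14), which encodes the anchoring filament protein ladinin, rose from 1.74, 2.36 and 2.5 to 9.45, 8.93 and 8.45 CPM (2.01, SE 0.31, FDR 0.00705), a call lost without number 1 (FDR 0.0696). Hspg2 and Emid1 stayed called without it.

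The wider lists around these genes held 1 call each. Of 61 tested collagens, laminins, proteoglycans and related genes, Hspg2 was the called member and 13 had a log2 fold change above 0 (21.3%, against 48.9% of all genes tested), with a median of -0.39. The list's median was -0.44, 0.08 and -0.50 in the pairs numbered 1, 2 and 3, so 1 pair went the other way. Itgb3 was the called member among 74 integrin and adhesion genes (median -0.19). Of these 74, 23 had a log2 fold change above 0 (31.1%), and 21 had an unadjusted p under 0.05, beside 9.56% of all genes. The median of that list was -0.22, -0.18 and -0.34 in the pairs numbered 1, 2 and 3. The summed level of 18 marker genes of thymic epithelium and stroma, which make much of the thymic matrix, was 314 to 324 CPM in WT and 334 to 346 CPM in KO, with none of its 14 tested members called by edgeR or DESeq2 (2 at an unadjusted p under 0.05). The sum was higher in KO while the median log2 fold change was -0.23 and 5 of the 14 stood above 0. Pecam1, an adhesion molecule known from endothelium, had a mean of 171 CPM in WT and 202 CPM in KO, the greater part of that sum. The sum therefore mostly follows Pecam1 and is no measure of the stroma as a whole. In bulk RNA, fewer cells of a type and less RNA per cell cannot be told apart.

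Genes of membrane traffic were lower in KO in 5 of 8 cases. Rims3 (ENSMUSG00000032890.17), a regulator of vesicle release, had 9.33, 8.19 and 9.7 CPM in WT against 2.33, 2.82 and 2.11 CPM in KO (-1.93, SE 0.30, edgeR FDR 0.00871). Rab7b, a small GTPase of late endosomes, fell by 2.52, Ston1, an endocytic adaptor, by 1.37, Als2cl, a protein related to a Rab5 exchange factor, by 1.07 and Ankrd50, which acts in endosomal recycling, by 0.70 on the log2 scale. The DENN domain genes Dennd3 and Dennd2d, whose family activates Rab GTPases, rose by 1.1 and 0.76, and Syt13 of the synaptotagmin family by 0.67. None of the 8 was called without number 1 (Rims3 had an FDR of 0.0703), while 6 were called without number 2 and 7 without number 3.

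Genes of lipid, steroid and sugar metabolism rose in 5 cases and fell in 3. Hsd11b1, which regenerates active glucocorticoid, had 26.9, 31.2 and 27.6 CPM in WT against 54.1, 46.5 and 53.7 CPM in KO (0.85, SE 0.16, edgeR FDR 0.0314). Gramd1b, which carries cholesterol from the plasma membrane to the endoplasmic reticulum, had 62.9, 62.9 and 62.5 against 130.5, 131 and 133 CPM (1.07, SE 0.13, FDR 0.00179). Dhcr7, the last enzyme of cholesterol synthesis, had 58.5, 44.8 and 52.1 against 21.5, 28.7 and 24.6 CPM (-1.06, SE 0.18, FDR 0.0156). Dhcr7 was the called member among 22 tested cholesterol synthesis genes (median -0.05). Chdh (choline dehydrogenase), Hsd17b11 (a hydroxysteroid dehydrogenase) and Cmah (which makes N-glycolylneuraminic acid) rose by 0.94, 0.78 and 0.69, and Cers4 (a ceramide synthase) and Fn3k (a fructosamine kinase) fell by 1.16 and 1.0. Gramd1b was the 1 gene of the class called without number 1.

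Tsc22d3, which encodes the glucocorticoid-induced leucine zipper GILZ, had 138, 145 and 174 CPM in WT against 292, 283 and 228 CPM in KO (0.81, SE 0.16, edgeR FDR 0.0332). Among 13 tested glucocorticoid-induced genes it was the called rise and Errfi1 the called fall, beside 0.778% of all genes called. The list is too short for its calls to be read against that share. At an unadjusted p under 0.05 stood 4 of the 13, beside 9.56% of all genes. The list ran from -1.68 to 0.93 on the log2 scale, with a median of 0.03. Fkbp5, another standard glucocorticoid target, stood at 0.25 (FDR 0.647). The call of Tsc22d3 was lost without number 1 (FDR 0.426).

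Among regulators of transcription and RNA, the largest rise outside the predicted genes was in Hist1h4m (ENSMUSG00000069306.5), a histone H4 gene. It had 0.316, 0 and 0.139 CPM in WT against 19, 22.6 and 20.8 CPM in KO (log2 fold change 6.99, SE 0.45, edgeR FDR 9.13e-06). The WT values rest on 3 reads against 394 in KO, a ratio of 142 (exact 95% interval 48.3 to 692, counting error only). It was the called member among 57 tested histone genes of the replication-dependent kind, many of which have near-identical copies. The list's median was -0.17, or 0.06, 0.04 and -0.53 in the pairs numbered 1, 2 and 3. Trps1 (ENSMUSG00000038679.16), a GATA-type repressor, had 85.8, 82.9 and 69.2 against 168, 173 and 203 CPM (1.19, SE 0.15, FDR 0.00191). Tbx19 (ENSMUSG00000026572.11), a T-box factor known from the pituitary, had 5.53, 6.25 and 5.96 against 13.8, 12.9 and 13.4 CPM (1.18, SE 0.23, FDR 0.0359), a call lost without number 1 (FDR 0.281) and in DESeq2 (adjusted p 0.0803).

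Zfp36l2, an RNA-binding protein that destabilises mRNAs with AU-rich elements, had 78.9, 106 and 122 CPM in WT against 256, 196 and 161 CPM in KO (0.99, SE 0.20, edgeR FDR 0.0485). The libraries of each genotype scattered widely, and the call was lost without number 1 (FDR 0.463). Atxn1, a partner of the repressor Capicua, rose by 0.83. Esrp2 (ENSMUSG00000084128.10), a splicing regulator of epithelia, had 14.9, 14.7 and 16.5 against 4.21, 4.0 and 3.48 CPM (-1.98, SE 0.25, FDR 0.00172) and stayed called under each omission of a replicate number. Tdrd5, a tudor domain protein of the piRNA pathway, and Gtf2h4, a subunit of the general factor TFIIH, fell by 0.76 and 0.83.

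Among proteases and chaperones, Pcsk1 (ENSMUSG00000021587.5), a prohormone convertase, had 3.0, 1.8 and 2.63 CPM in WT against 14.2, 19.5 and 15.8 CPM in KO (2.72, SE 0.29, edgeR FDR 0.000405). Ctse (ENSMUSG00000004552.16), which encodes the aspartic protease cathepsin E, had 135, 159 and 121 against 22.8, 17.4 and 24.9 CPM (-2.65, SE 0.18, FDR 9.13e-06). Hspa8 (ENSMUSG00000015656.17), the constitutive chaperone HSC70, had 151, 100.1 and 135 against 16, 25.2 and 18.5 CPM (-2.71, SE 0.21, FDR 2.75e-05). All 3 genes separated the genotypes widely and stayed called under each omission of a replicate number. Hspa8 was the 1 called member of 21 tested heat shock and chaperone genes (median -0.07, 7 above 0), with Hsp90ab1 at 0.01 (FDR 0.993), and Ctse the 1 of 24 cathepsin and lysosome genes (median -0.21, 4 above 0), with Ctsb at -0.02 (FDR 0.982). Over all genes 0.778% were called, and lists of this size hold too few calls to be read against that share. Above 0 stood 33.3% of the chaperone list and 16.7% of the cathepsin and lysosome list, against 48.9% of all genes. The median of the cathepsin and lysosome list was -0.19, 0.01 and -0.28 in the pairs numbered 1, 2 and 3. Zdhhc14, a palmitoyltransferase, and Lonrf1, a RING finger protein, fell by 1.49 and 0.93, and Rnpep, an aminopeptidase, rose by 0.96.

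In the class of cell division and cytoskeleton, Pttg1 (ENSMUSG00000020415.16), which encodes securin, the inhibitor of the protease that parts sister chromatids, had 11.7, 13.3 and 10.5 CPM in WT against 37.2, 32.9 and 41.1 CPM in KO (1.65, SE 0.19, edgeR FDR 0.00102). Ube2t, a ubiquitin-conjugating enzyme of the Fanconi anaemia pathway, rose by 1.03 and Pcm1, a protein of centriolar satellites, by 0.90. Nefh, the heavy neurofilament chain, had 4.58, 4.44 and 5.13 against 0.436, 0.235 and 0.124 CPM (-4.1, SE 0.52, FDR 0.00179), near 0 in KO. Shank3, a postsynaptic scaffold, and Dynlt1b, a dynein light chain with near-identical copies, fell by 2.96 and 1.44. The proliferation lists held no call in edgeR or DESeq2: none of 37 tested DNA replication genes (median 0.05) and none of 30 mitosis genes (median 0.05), of which 0 and 1 had an unadjusted p under 0.05, with Mki67 at 0.03 (FDR 0.976).

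Genes of the class of interferon-inducible families split by direction within neighbouring genes. Of the PYHIN DNA sensors, Ifi208 (ENSMUSG00000066677.12) had 28.6, 19.2 and 13.9 CPM in WT against 2.62, 5.41 and 6.46 CPM in KO (-2.05, SE 0.36, edgeR FDR 0.0176; 0.0873 without number 1), while Ifi203 had 58.3, 48.9 and 44.1 against 79.3, 95.4 and 103 CPM (0.88, SE 0.17, FDR 0.031). Of the TRIM family, Trim12a fell by 0.75, and Trim34b went from 1 read in WT to 68 in KO, a ratio of 73.5 (exact 95% interval 12.8 to 2947, counting error only). The GTPase gene 9930111J21Rik2, which RefSeq also lists as Irgb5, had 7.27, 6.52 and 6.93 CPM in WT against 0 reads in KO, at least 44.2-fold lower against a floor of 3 reads over the group. Ifi203 was the 1 called of 37 tested interferon-stimulated genes, beside 0.778% of all genes. Of the 37, 9 had a log2 fold change above 0 (24.3%, against 48.9% of all genes), and the median was -0.22, or -0.28, -0.01 and -0.17 in the pairs numbered 1, 2 and 3. These families, histones, Hspa8 with its processed pseudogenes and Olfr56 have near-identical copies, between which the counting may split or drop reads, so their values are uncertain.

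**Figure D3:**
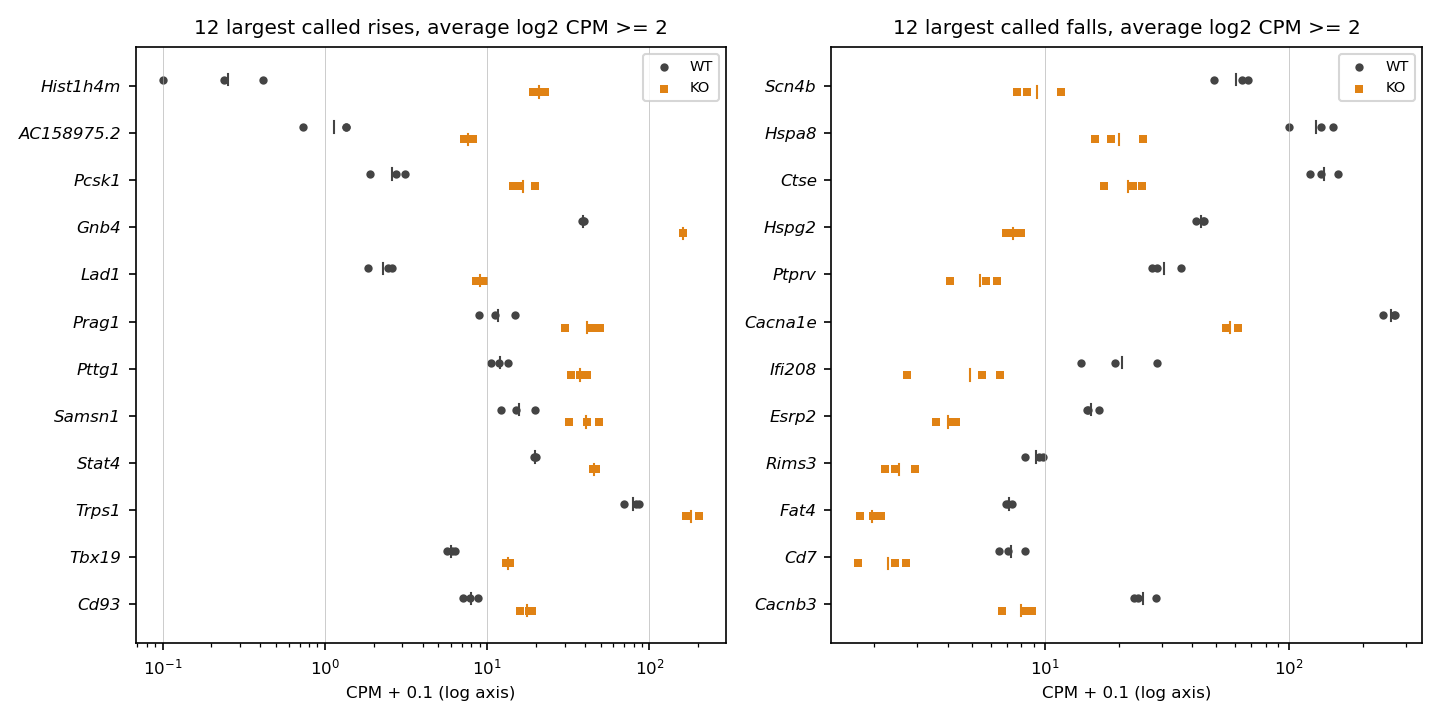
CPM + 0.1 on a log axis in each WT library (dark circles) and KO library (orange squares), with a vertical bar at the group mean, for the 12 largest called rises and falls among genes without a Gm, Rik or LOC name whose log2 CPM averaged 2 or more. The groups do not overlap in any of the 24 genes, as for every called gene and for 30.9% of all genes tested. Hist1h4m was near 0 CPM in WT, and Cacna1e fell from a WT mean of 261 to a KO mean of 57.4 CPM.

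Predicted and uncharacterised genes made up 22 calls, 16 higher and 6 lower. Gm37632 (ENSMUSG00000104197.1) had 75.2, 73.3 and 63.4 CPM in WT against 514, 528 and 602 CPM in KO (2.96, SE 0.15, edgeR FDR 1.95e-06), the lowest FDR of all genes. A430106G13Rik (ENSMUSG00000098206.1) had 224, 194 and 154 against 885, 1024 and 1218 CPM (2.45, SE 0.18, FDR 1.61e-05). Gm43305, a lncRNA per RefSeq, had 0.316, 0.416 and 0 against 19.3, 20.5 and 21.9 CPM (6.31, FDR 9.13e-06). For each of the 3 the KO libraries were several times higher than any WT library. Gm15459, a pseudogene per RefSeq, had 0.632, 0.139 and 0.693 against 19.9, 23.7 and 20.5 CPM (5.41, FDR 9.13e-06). AC158975.2 had 0.632, 1.25 and 1.25 against 8.14, 7.29 and 7.09 CPM (2.82, FDR 0.00231), and Gm48321 had 3.79, 3.19 and 1.94 against 9.59, 11.3 and 14.2 CPM (1.98, FDR 0.0112). The lowest KO library stood above the highest WT library for these 3 as well.

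AC102496.1 had 0 reads in WT and 4.65, 5.17 and 4.85 CPM in KO, at least 33.8-fold higher. In the other direction the pseudogene Gm6494 had 7.59, 6.8 and 7.35 CPM in WT against 0 reads in KO, at least 46.3-fold lower, and the olfactory receptor gene Olfr56 had 6.48, 5.83 and 6.24 CPM and 0 reads, at least 39.5-fold lower. Each such bound is against 3 reads over the group. Gm24313, a small nucleolar RNA, had 9.96, 8.33 and 9.29 CPM in WT against 2.33, 3.06 and 2.61 CPM in KO and fell by 1.8 on the log2 scale. A630023P12Rik, at 13.3, 18.9 and 14.3 against 5.67, 2.59 and 4.97 CPM, fell by 1.76. Lower by smaller steps were 8430429K09Rik, at 8.38, 7.08 and 7.76 against 2.47, 3.06 and 2.74 CPM (-1.5), and A130023I24Rik, at 134, 141 and 120.2 against 73.5, 68.9 and 81.7 CPM (-0.81). Without number 1 the calls of Gm24313, 8430429K09Rik and A130023I24Rik were lost (FDR 0.133, 0.318 and 0.267). Other called rises among predicted genes were in Gm37534 (1.8), Gm42047 (1.6), D130019J16Rik (1.31), Gm4258 (1.2), Gm26930 (1.16), AC154912.3 (0.99), AC154912.5 (0.93) and Gm36070 (0.83), with the small nuclear RNA Gm23143 at 0.76, and the remaining fall was 1700062C10Rik (-1.96). Kbtbd11, Tmcc3 and C78197, which fitted no class, fell by 1.05, 1.16 and 1.62. Of the 22 predicted genes, 14 were called without number 1, against 46 of all 104.

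The genes through which miR-181 is known to act were examined as lists. Of 8 published miR-181 targets none was called in RNA-seq by edgeR or DESeq2, 4 had an unadjusted edgeR p under 0.05 (9.56% of all genes), 7 had groups that did not overlap (30.9% of all genes), 3 had a log2 fold change above 0 (48.9% of all genes) and the median was -0.14. Cd69, an early activation marker, had 74.3 ± 8.69 CPM in WT against 115 ± 13.7 CPM in KO (SD, n = 3; log2 fold change 0.64, edgeR FDR 0.101), and Ptpn22, a phosphatase of TCR-proximal kinases, 133 ± 8.17 and 187 ± 11.4 CPM (0.50, FDR 0.161). Both were called without the block (FDR 0.0319 and 0.0162). The ERK phosphatases Dusp6 and Dusp5 stood at 0.32 and -0.35, Ptpn11, which encodes the phosphatase SHP-2, at -0.15, the survival gene Bcl2 at -0.14, the egress receptor S1pr1 at -0.79 and the Notch inhibitor Nrarp at -0.77, with FDRs of 0.168 (S1pr1) to 0.824 (Bcl2). In footprints 3 of the 8 were called higher, beside 1.97% of all genes tested there. They were Dusp6 (0.77, edgeR FDR 0.00161), Cd69 (0.60, FDR 0.0112) and Ptpn22 (0.42, FDR 0.0251).

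TCR genes showed no change called by edgeR in RNA. None was called among 25 TCR-induced genes (median 0.01), 30 kinases, adaptors and receptor chains of TCR signalling (median 0.00) or 26 genes of the Ras and ERK pathway (median 0.08). At an unadjusted p under 0.05 stood 4, 1 and 3 of them, beside 9.56% of all genes, and DESeq2 called 1, 0 and 0. The TCR-induced genes ranged from -0.46 to 1.25 in RNA. In footprints 5, 1 and 2 members of the lists were called higher, beside 1.97% of all genes tested there, and 0 of each lower. The footprint medians were 0.35, 0.13 and 0.16. By way of example, Cd5, whose level follows TCR signal strength, stood at -0.08 (FDR 0.913), Themis, which tunes TCR signals during positive selection, at 0.13 (FDR 0.879) and Rasgrp1, a Ras activator, at 0.17 (FDR 0.782). An FDR above 0.05 does not show that these genes were alike in the genotypes: the SE of the log2 fold change was 0.14 for Cd5.

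Among 12 Notch pathway genes, 17 early thymocyte genes and 10 tested markers of regulatory T cells, the same gene, Il2ra, was the 1 call. Of all genes tested 0.778% were called. Foxp3, the lineage factor of regulatory T cells, had 3.11 ± 0.609 CPM in WT against 2.12 ± 0.50 CPM in KO (SD, n = 3; log2 fold change -0.57, edgeR FDR 0.726). The early gene Rag1 stood at -0.32 (FDR 0.494) and Notch1 at 0.04 (FDR 0.968). No member was called of 20 maturation and egress genes, 13 CD4 and CD8 lineage genes, 20 NF-kB genes, 22 BCL2 family and p53 target genes or 15 V(D)J recombination genes by edgeR. In that order 8, 3, 2, 1 and 2 had an unadjusted p under 0.05, beside 9.56% of all genes, and DESeq2 called 1, 0, 0, 1 and 0. Of the 20 maturation and egress genes, the fit without the block called 1 higher and 5 lower (3.37% and 3.43% of all genes). Of these 20, 10 had a log2 fold change above 0, and their median was -0.003. Housekeeping lists held no call by edgeR or DESeq2: 77 cytosolic ribosomal proteins (median -0.03), 82 nuclear-encoded respiratory chain genes (-0.09), 37 proteasome subunits (-0.03) and 17 genes of microRNA processing and silencing (0.05), with 7, 3, 1 and 0 at an unadjusted p under 0.05.

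**Figure D4:**
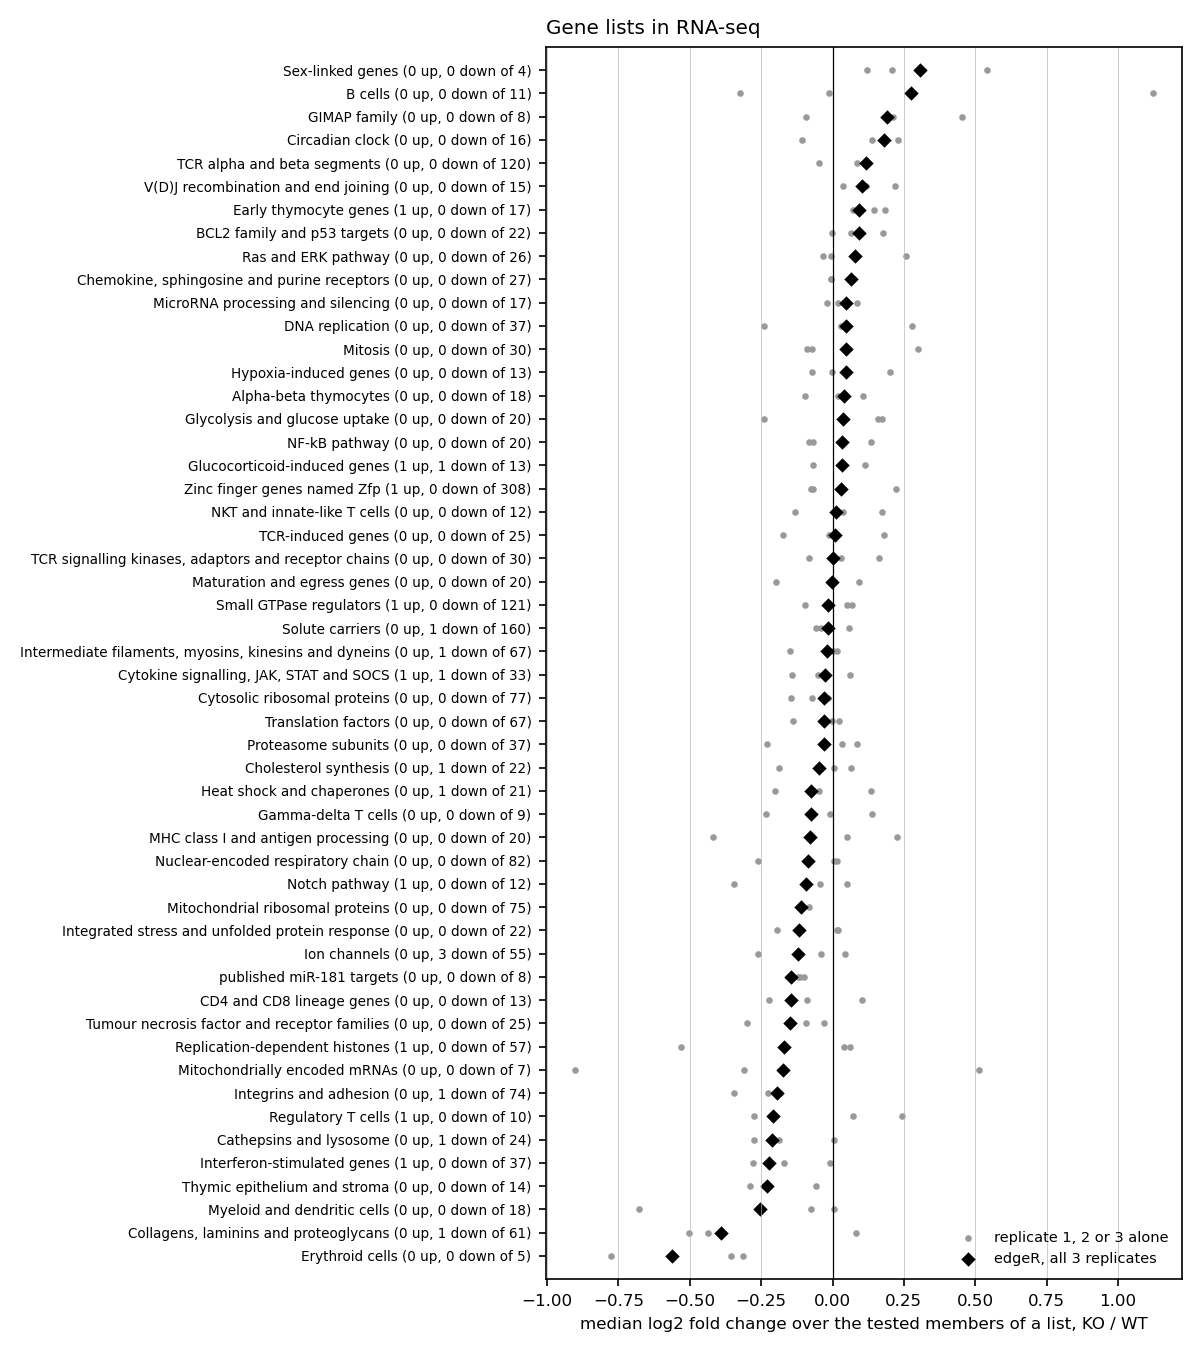
Median log2 fold change, KO over WT, over the tested members of each gene list (black diamonds, edgeR fit; grey dots, the pairs of libraries with the same replicate number), with the calls per list in brackets. Medians lie within 0.39 of 0 except for the 5 erythroid genes at -0.56, and most lists hold no call.

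Markers of the cells in the samples were read in each library. Genes of alpha-beta thymocytes, the labelled cell type, summed to 18642 to 20357 CPM in WT and 17639 to 19193 CPM in KO, and none of the 18 was called by edgeR or DESeq2 (2 at an unadjusted p under 0.05). Cd4 stood at 0.19 (FDR 0.727) and Cd8a at -0.01 (FDR 0.989). The 24 markers of NKT and innate-like T cells summed to 940.2 to 974 CPM in WT against 1044 to 1099 CPM in KO, higher in KO, with a median of 0.01 and 0 of 12 tested members called by edgeR, 1 by DESeq2 and 4 at an unadjusted p under 0.05. Their defining factor Zbtb16 went the other way at 4.72 ± 1.18 CPM in WT against 1.57 ± 0.803 CPM in KO (SD, n = 3; -1.68, SE 0.45, FDR 0.145). The 11 regulatory T cell markers, Il2ra and Ikzf2 among them, summed to 451 to 510.4 CPM in WT against 625 to 722 CPM in KO, and the 9 erythroid markers to 77.5 to 92.2 CPM in WT against 46.8 to 58.8 CPM in KO, neither with overlap between genotypes. Of the 10 regulatory T cell markers tested 1 was called by edgeR and 3 by DESeq2, while 4 stood above 0 and the median was -0.21, opposite in sign to the sum. Ikzf2 had a mean of 316 CPM in WT and 484 CPM in KO, the greater part of that sum. Of the 5 erythroid markers tested none was called by edgeR or DESeq2, with 2 at an unadjusted p under 0.05 and a median of -0.56. Sums for gamma-delta T cells, B cells and myeloid cells overlapped, and Il17a was the 1 marker at 0 reads. The part of other cell types in the calls was not tested.

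Called genes often stood near each other in the genome. Of the 104, 90 matched a gene in the RefSeq annotation of GRCm38.p6, and 26 of these (28.9%) had another called gene within 10 genes in the RefSeq order, against 3.68% of the 11913 matched genes tested that had a called gene that near. They formed 11 groups. Ctse, Rab7b and Slc41a1 all fell, as did Nefh, Emid1 and Kremen1, and the pairs of Ankrd50 with Fat4, Tmie with Als2cl and Olfr56 with 9930111J21Rik2. Il17rb and Chdh both rose. The other 5 groups were mixed: Mfhas1, Prag1 and Lonrf1; Ube2t, Ptprv and Rnpep; Gramd1b and Hspa8; Ifi208 and Ifi203; and Trim12a and Trim34b.

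The chromosome of Mir181a-1 carried 15 of the matched called genes (16.7%), against 5.93% of matched genes tested. Of these, 1 lay within 10 RefSeq genes of Mir181a-1: the lncRNA Gm4258, at 567, 518 and 442 CPM in WT against 1049, 1151 and 1316 CPM in KO (1.2, SE 0.15, edgeR FDR 0.00179). A cause of this clustering was not tested. Called genes without a RefSeq match, Gm37632 and A430106G13Rik among them, were not placed. Whether any of them lies near Mir181a-1 is therefore not known here. Of the matched called genes 88.9% were protein coding, beside 89.9% of the matched genes tested.

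The footprint libraries gave a second reading of the same genes, which their choice in RNA-seq did not use. In footprints 410 of 13252 genes were called (3.09%), 261 higher (1.97%) and 149 lower (1.12%). Of the 104 RNA-seq genes, 101 were tested there, all 101 had a fold change of the same sign, and 81 were called in that direction (80.2%), 39 of 49 rises and 42 of 52 falls. These 81 genes made up 19.8% of the footprint calls. Whether both assays were done on cells of the same mice is not stated, so the footprints may not be an independent sample of animals.

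The size of the change was smaller in footprints than in RNA for 68 of the 101 genes. These genes were chosen by their RNA-seq values, and such a choice favours larger changes in RNA-seq. The count therefore cannot tell whether footprints changed less. Among genes chosen after their values were seen, Hspg2 stood at -2.56 in RNA and -0.69 in footprints (edgeR FDR 0.0786) and Rims3 at -1.93 and -0.80 (FDR 0.45), neither called in footprints. Larger in footprints were the values of Hspa8, at -2.71 in RNA and -3.85 in footprints (FDR 1.61e-06), Gm15459, at 5.41 and 7.02 (FDR 2.01e-07), AC158975.2, at 2.82 and 5.26 (FDR 0.000276), and the small nucleolar RNA Gm24313, at -1.8 and -4.56 (FDR 0.0012). The channel gene Cacna1e was level between the assays at -2.19 and -2.18, and Stat4 at 1.21 and 1.13. The differences between the assays were not tested.

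**Figure D5:**
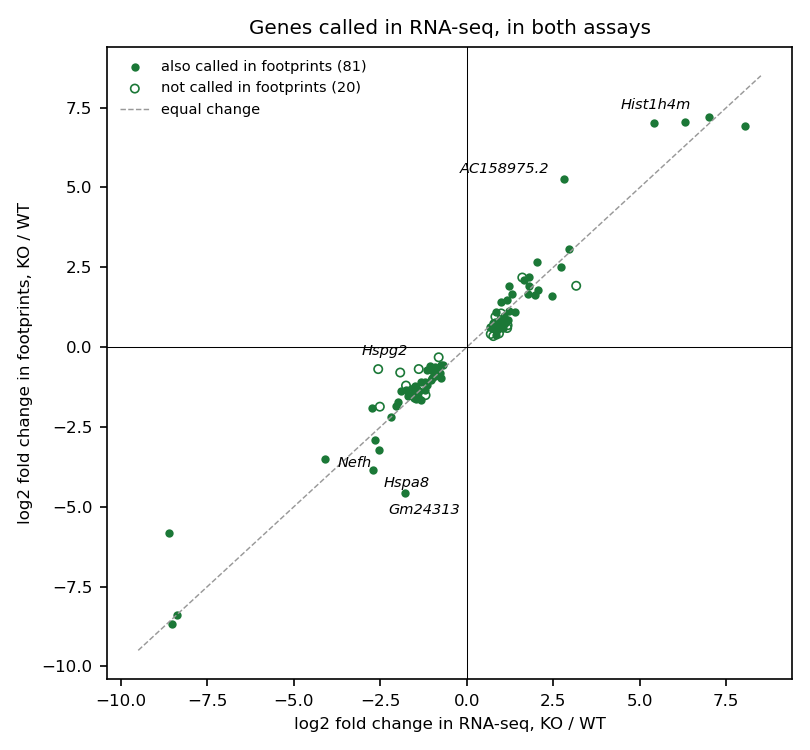
Log2 fold change, KO over WT, in footprints (vertical axis) against RNA-seq (horizontal axis) for the 101 genes called in RNA-seq and tested in footprints; filled points (81) are also called in footprints, open points (20) are not, and the dashed line marks equal change. All points lie at the lower left or the upper right of the origin.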

How the data were processed

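The deposited values are counts of reads per Ensembl gene, which the authors named adjusted; neither labels nor headers say what was adjusted. The submitters' processing notes name FastQC, Bowtie2 2.5.1, STAR 2.7.10a, HTSeq 2.0.3 and DESeq2 1.40.2. Of the build, annotation and strand setting nothing is stated in the sources used here. Hence no coordinates are printed from the deposited files (those of the microRNAs are from RefSeq, GRCm38.p6), and reads of overlapping or antisense genes cannot be told apart. Symbols were found for 55154 of 55335 IDs. The authors' tables of their own comparison, with 12 columns of per-library values, were not used.

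RNA-seq and footprints were fitted separately (edgeR 4.0.16, R 4.3.3): rows with a mean count of at least 10, TMM, the quasi-likelihood test between genotypes with the replicate number as a block (2 residual degrees of freedom) and Benjamini-Hochberg adjustment over all genes tested, called at FDR under 0.05. CPM uses TMM-scaled totals, and SE is the log2 fold change divided by the square root of F. The block followed from the mirrored deviations, with correlations under -0.9 in each of 3 same-numbered pairs; the labels say nothing of pairing. Floors and the intervals cover counting error only. Alternatives were no block, RLE size factors, DESeq2 1.42.0, other filters, other thresholds and the omission of each replicate number.

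The genes compared and the gene lists were chosen with earlier results of these data known. Values per library are given for the 12 largest called rises and falls with a gene symbol other than a Gm, Rik or LOC name and an average log2 CPM of at least 2, for up to 5 predicted rises and falls, and for other called genes of each class. In lists, called members, members with high CPM and all published miR-181 targets were named. Some genes that these rules would name are not reported here.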

Additional observations from a re-analysis of the deposited data

How the results depend on the processing

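The 104 RNA-seq calls (edgeR FDR under 0.05) became 908 with no replicate block, 399 with no filter on low counts, 194 at an FDR under 0.1, and 56 to 247 without replicate 1, 2 or 3; RLE size factors gave 104, filterByExpr 110 and DESeq2 with the replicate block 122, of which 95 were among the 104. The 410 footprint calls became 2317 with no replicate block, 885 with no filter on low counts, 653 at an FDR under 0.1, and 135 to 775 without replicate 1, 2 or 3. No called gene changed sign in any of these fits; 58 of the 104 lost their call without replicate 1, 9 without replicate 2, 8 without replicate 3, 9 in DESeq2 and 3 under filterByExpr, and the cause was not tested. An omission leaves 1 pair fewer and 1 residual degree of freedom. The log2 fold change of Mir181a-1 in RNA-seq ran from -0.67 to 0.89 without replicate 1, 2 or 3, the negative value without replicate 3 (FDR 0.643). The 9 calls lost in DESeq2 were Tbx19, Fn3k, Cers4, Adcy1, Smoc1, 8430429K09Rik, Cd7, 1700062C10Rik and Shank3. The pairing of replicate numbers rests on the deposited counts alone. With 4479182 to 8180286 reads in genes per library, small changes of genes near the filter of 10 reads were not detectable.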

Other observations

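Genes of lymphocyte biology stood close to the threshold in RNA-seq and were chosen here after their values were seen. Il2rb, the beta chain of the interleukin-2 and interleukin-15 receptors, had 36.3 ± 6.94 CPM in WT against 17.6 ± 4.06 CPM in KO (SD, n = 3; log2 fold change -1.07, edgeR FDR 0.0535), opposite in sign to Il2ra at 0.84. Ms4a4b, a membrane protein of T cells, had 61.4 ± 6.97 CPM in WT against 35.3 ± 3.85 CPM in KO (SD, n = 3; -0.80, edgeR FDR 0.0513). Ikzf2, which encodes the transcription factor Helios, stood at 0.62 (FDR 0.0784), Ddit4, an inhibitor of mTORC1 signalling, at 0.93 (FDR 0.064) and Gimap8, a GTPase of lymphocytes, at 0.64 (FDR 0.0667). In footprints Il2rb (-0.64, FDR 0.0369), Ddit4 (1.58, FDR 0.000199) and Gimap8 (0.66, FDR 0.00687) were called in the same direction, and Ikzf2 was not (0.29, FDR 0.24).

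Tox, a factor of CD4 lineage development, stood at 0.67 in RNA-seq (edgeR FDR 0.109) and at 0.75 in footprints (FDR 0.00186). Ltb, which encodes lymphotoxin beta, stood at 0.58 (FDR 0.257) and 1.27 (FDR 0.000199). Both were called in footprints and not in RNA-seq; the difference between the assays was not tested.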
